A study of Mus musculus with 9 samples.

Results

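The doublecortin family, the stathmins and 2 neuronal tubulins were described in sorted mouse brain cells. The members were the 9 genes Dcx, Dclk1, Dclk2, Stmn1, Stmn2, Stmn3, Stmn4, Tubb3 and Tubb2b, found by gene symbol, with older symbols allowed, among the 41174 non-control probes of the array. They had 17 probes in all, 5 for Dclk1, 3 for Dcx, 2 each for Stmn1 and Stmn2 and 1 for each of the others. All 17 passed the filter on dim probes, and the 9 genes stood among 24891 genes tested.

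RNA came from cells sorted by a fluorescent reporter out of pooled tissue of mice aged 6 to 8 weeks, with 10 dissections per experiment and 1000 cells per RNA sample. The 3 groups were hippocampus Sox2-GFP, hippocampus DCX-DsRed and SVZ Sox2-GFP (SVZ is the subventricular zone, the stem cell region beside the lateral ventricle), each with replicates A, B and C on 1 array apiece. Sox2-GFP mice are a transgenic line with green fluorescent protein under the promoter of Sox2, which encodes a regulator of neural stem cell identity that is also found in glia, and DCX-DsRed mice are another transgenic line with red fluorescent protein under the Dcx promoter. No DCX-DsRed cells of the SVZ were among the groups, so region was compared within Sox2-GFP and reporter within the hippocampus. The comparison of SVZ Sox2-GFP with hippocampus DCX-DsRed differs in both, so region and reporter cannot be told apart in it. The labels leave unstated whether each replicate had its own pool of mice. Every p-value is therefore set against the spread between these arrays alone, and that spread may be technical.

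Microtubules are polymers of alpha- and beta-tubulin, and a newborn neuron rebuilds them as it migrates and grows an axon. Doublecortin binds along the microtubule and stabilises it, and the doublecortin-like kinases carry the same kind of domain joined to a protein kinase. Stathmins do the opposite: they hold free tubulin dimers and favour disassembly. Dcx, Tubb3 and Stmn2 are widely used to recognise young neurons in the hippocampus and SVZ.

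The bases before the annotated gene starts are shown for 4 members because Dcx is the gene whose promoter drives one of the sorting reporters, Dclk1 and Dcx are relatives whose mRNAs followed different patterns, and Stmn3 and Tubb3 varied together across the arrays. They come from RefSeq (GRCm38.p6), where 5 of the 9 members had an entry, and they run 5′ to 3′ on the gene's own strand. Capitals mark matches, on either strand, to the 6 motifs searched: CAGCTG and CAGATG (forms of the E-box bound by proneural factors), ACAAAG (a core bound by Sox factors), GGGCGG (a GC box), CCAAT (the site of NF-Y) and TATAAA. The labels do not give the stretch of the Dcx promoter that is in the reporter.
Dcx, chrX:143933397-143933469, minus strand: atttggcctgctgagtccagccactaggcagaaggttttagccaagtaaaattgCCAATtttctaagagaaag
Dclk1, chr3:55242114-55242302, plus strand: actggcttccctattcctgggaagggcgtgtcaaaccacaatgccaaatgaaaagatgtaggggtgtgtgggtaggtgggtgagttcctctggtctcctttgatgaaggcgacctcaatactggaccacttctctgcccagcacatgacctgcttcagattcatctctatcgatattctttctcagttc
Stmn3, chr2:181314501-181314750, minus strand: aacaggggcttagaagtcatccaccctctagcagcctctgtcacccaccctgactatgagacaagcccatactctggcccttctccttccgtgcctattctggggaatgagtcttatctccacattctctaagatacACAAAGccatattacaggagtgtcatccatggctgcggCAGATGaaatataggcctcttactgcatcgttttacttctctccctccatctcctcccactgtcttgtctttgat
Tubb3, chr8:123411303-123411552, plus strand: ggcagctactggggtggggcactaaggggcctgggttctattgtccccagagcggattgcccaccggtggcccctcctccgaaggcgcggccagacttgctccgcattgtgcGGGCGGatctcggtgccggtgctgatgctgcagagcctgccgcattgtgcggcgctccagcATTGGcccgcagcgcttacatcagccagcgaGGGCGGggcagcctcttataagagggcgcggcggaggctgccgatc

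The Tubb3 window of 250 bases held GGGCGG at 2 places, against 32.7% of all 32851 windows of that length with at least 1, and CCAAT at 1 place on the other strand, against 33.8%. The Stmn3 window of 250 bases held 1 ACAAAG (16.5% of all windows) and 1 CAGATG (14.4%). The 73 bases before Dcx held 1 CCAAT, as did 9.99% of windows of that length. None of the 6 motifs occurred in the 189 bases before Dclk1, and no motif was shared by the windows of Stmn3 and Tubb3. The 182 bases before Dclk2, searched but not shown, held 1 ACAAAG on the other strand (12.4% of windows of that length). These matches describe the letters only.

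Every level given here is log2 of the array's processed signal minus that array's 75th percentile, so 0 is the 75th percentile of its probes and a step of 1 means a factor of 2. Values of a group are given in the order of replicates A, B and C. Where a gene had several probes, the one with the highest mean signal stood for it. Per array, 80.5% to 88.6% of non-control spots were well above background and no spot was saturated. The scaled values of replicates of a group correlated across genes at 0.783 to 0.919. Hippocampus Sox2-GFP replicate C stood apart: its correlations with replicates A and B of its group were 0.816 and 0.783, against 0.919 between A and B, and it was the lowest array of all 9 for 32% of all genes. It was also the lowest array for 6 of the 9 members (Dcx, Dclk2, Stmn1, Stmn2, Stmn4 and Tubb3). Where leaving it out changed a member's fold difference by a factor of over 1.5, both values are given. Smaller changes are mostly not listed. The arrays lay on 3 slides. Slide 2 held hippocampus Sox2-GFP replicates A and B alone, and slide 3 held its replicate C together with DCX-DsRed replicate C and SVZ replicates B and C.

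Between the reporters in the hippocampus, 1 of the 9 members was called: Stmn1 was lower in Sox2-GFP than in DCX-DsRed cells. Called means an adjusted p under 0.05 in limma's test, with Benjamini-Hochberg adjustment over all genes. In that comparison 3.17% of all genes were called, 1.43% lower and 1.74% higher in Sox2-GFP. Between SVZ Sox2-GFP and hippocampus DCX-DsRed, 1 of 9 members was called, Dclk1 higher in the SVZ cells, where 1.55% of all genes were called and 0.542% were called higher. Between the regions within Sox2-GFP, limma called 0 of 9 members and 0.398% of all genes, 0.354% lower and 0.0442% higher in the SVZ. At an unadjusted p under 0.05, 5 of the 9 members passed in this comparison of regions, beside 10.8% of all genes. In the comparison of reporters 4 passed at that level, beside 16.9% of genes, and in the remaining one 3, beside 13.7%. All 9 members had a higher mean in the SVZ, with a median difference of 1.71 beside 0.07 over all genes. Arrays of the groups did not overlap for 4 members between the reporters in the hippocampus: Dclk1 and Tubb2b were higher in Sox2-GFP (11.4% of all genes) and Stmn1 and Stmn4 lower (13.3%). Between SVZ Sox2-GFP and DCX-DsRed, Dclk1, Dclk2, Stmn3 and Tubb2b were higher without overlap (10.6% of all genes) and Stmn4 lower (10.4%). Between the regions, Dclk1, Stmn1, Stmn3 and Stmn4 were higher in the SVZ without overlap (8.83% of all genes), and none was lower (8.1%). The 3 comparisons share their groups, so their values are not independent of each other.

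**Figure D1:**
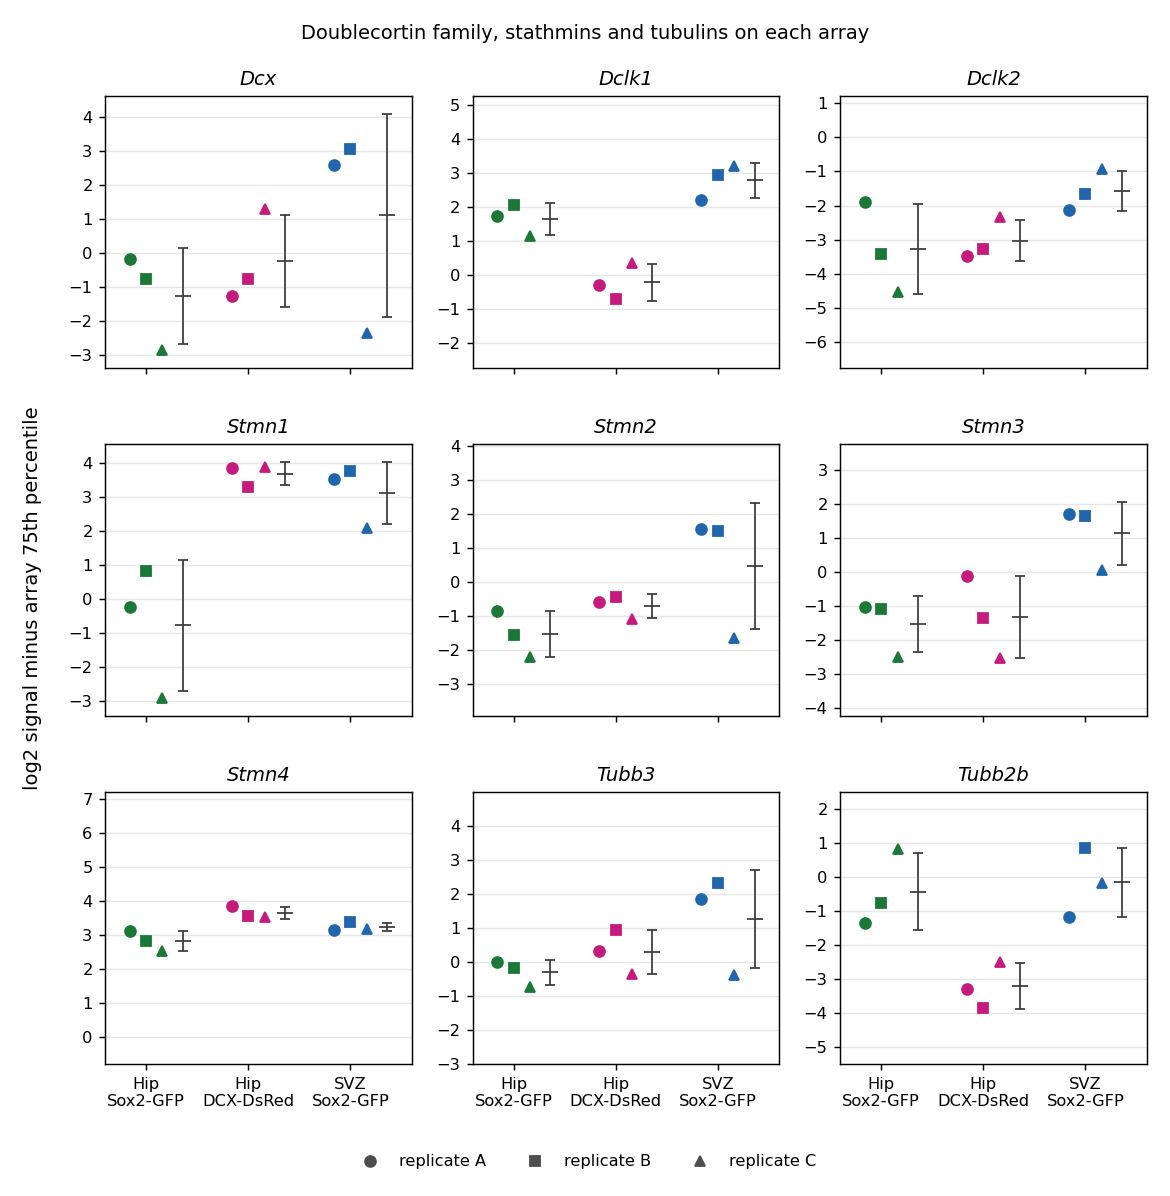
Each panel plots 1 gene. The vertical axis is log2 signal minus the array's 75th percentile and spans 8 units in every panel, points are single arrays (circle, square and triangle for replicates A, B and C), and the bar beside them is the mean with 1 SD (n = 3). Stmn1 is low on all 3 hippocampus Sox2-GFP arrays, Dclk1 and Tubb2b are low on all 3 DCX-DsRed arrays, and SVZ replicate C lies below the other SVZ arrays for Dcx, Stmn2, Stmn3 and Tubb3.

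Dcx encodes doublecortin, whose promoter drives the DsRed reporter. Its mRNA is described here beside the reporter groups, and the purity of the sorts was not tested. It measured -1.26, -0.76 and 1.30 on the DCX-DsRed arrays, -0.17, -0.75 and -2.85 on hippocampus Sox2-GFP, and 2.60, 3.07 and -2.34 on SVZ Sox2-GFP. The 3 groups overlapped, and the highest values were on 2 SVZ Sox2-GFP arrays, not on the arrays of the Dcx reporter. Sox2, whose promoter drives the other reporter, was likewise not highest in its own sort from the hippocampus: it measured 0.96, 0.94 and -0.92 on hippocampus Sox2-GFP, below all DCX-DsRed arrays (1.33, 1.74 and 1.72), and 0.94, 2.09 and 2.30 on SVZ Sox2-GFP. For Dcx, SVZ replicate C lay 42.6-fold below the highest SVZ array. The spread within groups (SD 2.07) was wider than that of 94.2% of genes, whose median SD was 0.70. Neither comparison with DCX-DsRed passed the test: the mean of hippocampus Sox2-GFP differed from it by -1.02 ± 1.46 (SE, 95% interval -4.37 to 2.33, adjusted p = 0.778) and that of SVZ Sox2-GFP by 1.35 ± 1.46 (-2.01 to 4.70, adjusted p = 0.775). Between the regions the difference was 2.36 ± 1.46 (adjusted p = 0.604), and without SVZ replicate C it was 4.09 (17.0-fold, adjusted p = 0.216). Without replicate C of hippocampus Sox2-GFP, the regions differed by 1.57 (2.97-fold, adjusted p = 0.884) and the reporters in the hippocampus by -0.22 (adjusted p = 0.966). The difference between SVZ Sox2-GFP and DCX-DsRed ran from 0.36 without SVZ replicate B to 3.07 without SVZ replicate C (adjusted p = 0.970 and 0.276).

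The other probes of Dcx gave no call either. Probe A_52_P506493 followed the main probe over the 9 arrays (r = 0.937), with -0.15 and 1.71 on SVZ replicates A and B and -8.17 on replicate C. It was well above background on 6 of the 9 arrays, and SVZ replicate C was not among them. Probe A_51_P289097 followed less closely (r = 0.709). It was narrow over the DCX-DsRed arrays (-5.22, -4.83 and -5.36, the first not well above background), and all 3 SVZ arrays lay above them (-2.78, -0.67 and -4.10), with a difference of 2.62 ± 0.93 (SE, adjusted p = 0.253). This probe put hippocampus Sox2-GFP above DCX-DsRed by 0.88 (adjusted p = 0.693), the opposite sign to the main probe. In all 3 probes SVZ replicate B was the highest array.

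Dclk1 encodes doublecortin-like kinase 1, a microtubule-binding protein kinase. Its main probe measured 2.19, 2.92 and 3.19 on SVZ Sox2-GFP, 1.71, 2.06 and 1.13 on hippocampus Sox2-GFP, and -0.32, -0.72 and 0.35 on DCX-DsRed. Each SVZ array lay above each hippocampal array of Sox2-GFP cells, and each of these above each DCX-DsRed array, so no neighbours in this order overlapped. SVZ Sox2-GFP exceeded DCX-DsRed by 3.0 ± 0.44 (SE, 7.99-fold, adjusted p = 0.0192). In the pooled cells, a larger share of cells with the mRNA and more mRNA per cell cannot be told apart. Hippocampus Sox2-GFP exceeded DCX-DsRed by 1.86 ± 0.44 (3.63-fold), which did not pass (adjusted p = 0.0649, or 0.0489 with normexp background correction), and the regions differed by 1.14 ± 0.44 (2.20-fold, adjusted p = 0.408). A moderated F test over the 3 groups gave Dclk1 an adjusted p of 0.0253, where 2.58% of all genes passed, and 8 of 19 alternatives took it past 0.05.

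The call of Dclk1 depended on the probe. Of the other 4 probes, A_51_P270355 and A_52_P563818 gave SVZ minus DCX-DsRed differences of 4.09 (adjusted p = 0.0806) and 5.57 (adjusted p = 0.177), and A_52_P21628 and A_52_P217807 gave 0.98 (adjusted p = 0.537) and 0.32 (adjusted p = 0.979). The first pair were well above background on only 1 of the 3 DCX-DsRed arrays, replicate B, so their differences are taken largely against background. They followed each other over the arrays (r = 0.971). Probe A_52_P217807 followed none of the others (r from -0.144 to 0.139). It ranged from 2.70 on hippocampus Sox2-GFP replicate C to -7.30 on SVZ replicate C, and it put SVZ below hippocampus Sox2-GFP by 3.73. Its 2 lowest values, on SVZ replicate C and DCX-DsRed replicate B, were not well above background, and its range and correlations rest in part on them. The difference between the regions includes the value on SVZ replicate C. On SVZ replicates A and B this probe measured -2.70 and 1.93, against 0.06, 0.36 and 2.70 on hippocampus Sox2-GFP. With the mean of all 5 probes the difference from DCX-DsRed was 2.79 (adjusted p = 0.0914). The call was also lost within slide 1 (2.71, adjusted p = 0.158) and slide 3 (2.71, adjusted p = 0.392), and without DCX-DsRed replicate A (2.96, adjusted p = 0.0880) or B (2.75, 0.0777) or SVZ replicate B (2.92, 0.0625) or C (2.79, 0.0771). The size of the difference on the main probe stayed between 2.71 and 3.29 in those fits and in the others that left out an array.

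**Figure D2:**
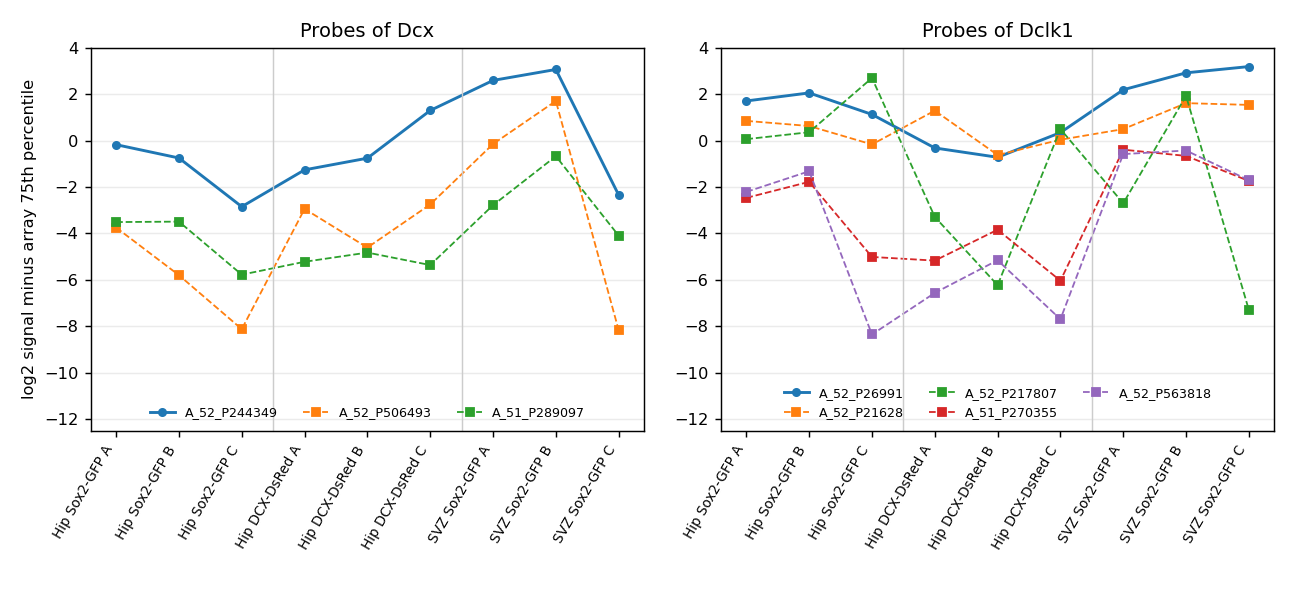
Each line is 1 probe of Dcx (left) or Dclk1 (right) over the 9 arrays, in log2 signal minus the array's 75th percentile. The solid line is the probe that stands for the gene, and the dashed lines are the others. The Dcx probes drop together on SVZ replicate C, whereas probe A_52_P217807 of Dclk1 moves apart from the other 4.

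Dclk2, the second doublecortin-like kinase, measured -2.13, -1.66 and -0.93 on SVZ Sox2-GFP, -1.89, -3.44 and -4.53 on hippocampus Sox2-GFP and -3.49, -3.27 and -2.33 on DCX-DsRed. The SVZ arrays lay above all DCX-DsRed arrays, and hippocampus Sox2-GFP overlapped both other groups. The SVZ mean was higher by 1.46 ± 0.68 than in DCX-DsRed (adjusted p = 0.403) and by 1.71 ± 0.68 than in hippocampus Sox2-GFP (adjusted p = 0.427), and neither passed. The latter was 1.09 without hippocampus Sox2-GFP replicate C (adjusted p = 0.714) and 2.41 without its replicate A (adjusted p = 0.253). Hippocampus Sox2-GFP differed from DCX-DsRed by -0.255 ± 0.68 (adjusted p = 0.892), and by 0.37 without hippocampus Sox2-GFP replicate C (adjusted p = 0.835).

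Stmn1 encodes stathmin, the founding member of its family, found in dividing progenitors as well as young neurons. It measured -0.25, 0.81 and -2.92 on hippocampus Sox2-GFP, 3.85, 3.29 and 3.88 on DCX-DsRed, and 3.52, 3.74 and 2.07 on SVZ Sox2-GFP. The hippocampus Sox2-GFP arrays lay below all 6 others, while SVZ Sox2-GFP and DCX-DsRed overlapped. Hippocampus Sox2-GFP lay 22.1-fold below DCX-DsRed (log2 difference -4.46 ± 0.90, SE, adjusted p = 0.0395). SVZ Sox2-GFP exceeded hippocampus Sox2-GFP by 3.90 ± 0.90 (14.9-fold), which did not pass (adjusted p = 0.159). That fold was 7.11 without hippocampus Sox2-GFP replicate C (adjusted p = 0.144) and 25.9 without its replicate B (adjusted p = 0.109). SVZ Sox2-GFP and DCX-DsRed differed by -0.57 ± 0.90, with a 95% interval of -2.63 to 1.50.

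The second probe of Stmn1, A_52_P319161, followed the first over the 9 arrays (r = 0.991). It gave a hippocampal difference of -5.45 (43.8-fold, adjusted p = 0.0552). With the lowest array, replicate C of hippocampus Sox2-GFP, left out, the difference on the main probe was -3.40 (10.5-fold) and was still called (adjusted p = 0.0316). Without replicate B it was -5.26 (38.4-fold, adjusted p = 0.0336). The call was lost without hippocampus Sox2-GFP replicate A (adjusted p = 0.0883), without DCX-DsRed replicate A (0.130), B (0.105) or C (0.105), and without SVZ replicate A (0.0609) or B (0.0570). It was also lost when only the 2 hippocampal groups were fitted (adjusted p = 0.0766). Within slide 3, where replicate C was the hippocampus Sox2-GFP array, the difference was -6.81 (adjusted p = 0.228). A block for slide gave -6.50 (90.3-fold, adjusted p = 0.0146). In that block the hippocampus Sox2-GFP group enters through its replicate C alone, since slide 2 held no other group. All 21 alternatives kept the sign.

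Stmn2, Stmn3 and Stmn4 are the relatives of stathmin that are anchored to membranes and found mainly in neurons. Stmn2 measured 1.56, 1.50 and -1.67 on SVZ Sox2-GFP, -0.61, -0.43 and -1.10 on DCX-DsRed, and -0.86, -1.55 and -2.20 on hippocampus Sox2-GFP. SVZ replicates A and B were higher than the other 7 arrays, SVZ replicate C lay among the hippocampal ones, and the hippocampal groups overlapped. Stmn2 was called in no comparison. Its second probe, A_52_P641991 (r = 0.703 with the main probe), gave no call either and was well above background on only 3 of the 9 arrays. These were SVZ replicates A and B (-4.45 and -2.6) and DCX-DsRed replicate C (-3.80). On the main probe, SVZ Sox2-GFP exceeded hippocampus Sox2-GFP by 2.0 ± 0.84 (4.0-fold, adjusted p = 0.443). Without SVZ replicate C this difference was 3.06 (8.35-fold, adjusted p = 0.0655), and that from DCX-DsRed went from 1.18 to 2.24 (adjusted p = 0.624 and 0.111).

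Stmn3 measured 1.68, 1.64 and 0.05 on SVZ Sox2-GFP, -0.13, -1.35 and -2.55 on DCX-DsRed, and -1.03, -1.09 and -2.50 on hippocampus Sox2-GFP. All SVZ arrays lay above all hippocampal arrays, and the hippocampal groups overlapped. The SVZ mean was higher by 2.47 ± 0.74 than in DCX-DsRed (5.53-fold, adjusted p = 0.177) and by 2.67 ± 0.74 than in hippocampus Sox2-GFP (6.35-fold, adjusted p = 0.244). Neither passed, although both had unadjusted p-values under 0.05, at 0.0101 and 0.00674. The first was 3.07 without DCX-DsRed replicate A (adjusted p = 0.170) and 1.87 without DCX-DsRed replicate C (adjusted p = 0.318). The difference between the reporters in the hippocampus was -0.20 ± 0.74, with a 95% interval of -1.90 to 1.51.

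Stmn4 was the steadiest member. It measured 3.86, 3.56 and 3.54 on DCX-DsRed, 3.16, 3.39 and 3.17 on SVZ Sox2-GFP, and 3.12, 2.82 and 2.54 on hippocampus Sox2-GFP, and no neighbours in this order overlapped. Its spread within groups (SD 0.21) was wider than or equal to that of 3.35% of genes. Hippocampus Sox2-GFP was below DCX-DsRed by a small amount (difference -0.83 ± 0.29, 1.77-fold), which did not pass (adjusted p = 0.199).

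Tubb3 encodes class III beta-tubulin, the form of beta-tubulin typical of neurons. It measured 1.86, 2.32 and -0.36 on SVZ Sox2-GFP, 0.34, 0.94 and -0.35 on DCX-DsRed, and -0.00, -0.17 and -0.71 on hippocampus Sox2-GFP. As for Dcx and Stmn2, SVZ replicates A and B were the 2 highest arrays, and SVZ replicate C lay among the hippocampal arrays. No comparison passed: the regions differed by 1.57 ± 0.70 (2.96-fold, adjusted p = 0.471), and the reporters in the hippocampus by -0.60 ± 0.70 (95% interval -2.21 to 1.00, adjusted p = 0.717). Without SVZ replicate C the regions differed by 2.38 (5.22-fold, adjusted p = 0.141), and SVZ Sox2-GFP exceeded DCX-DsRed by 1.78 instead of 0.96 (adjusted p = 0.199 and 0.630).

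Tubb2b encodes a beta-tubulin of the developing brain. It measured -3.28, -3.84 and -2.48 on DCX-DsRed, -1.34, -0.75 and 0.83 on hippocampus Sox2-GFP, and -1.16, 0.87 and -0.17 on SVZ Sox2-GFP. All DCX-DsRed arrays lay below all 6 Sox2-GFP arrays, and the Sox2-GFP groups overlapped. The regions differed by 0.27 ± 0.71 (adjusted p = 0.92), and by 0.90 without hippocampus Sox2-GFP replicate C (adjusted p = 0.81). Against DCX-DsRed, hippocampus Sox2-GFP was higher by 2.78 ± 0.71 (6.85-fold, adjusted p = 0.0848) and SVZ Sox2-GFP by 3.05 ± 0.71 (8.26-fold, adjusted p = 0.0943), and neither passed. A block for slide brought both past the threshold (3.16, adjusted p = 0.0349, and 2.61, adjusted p = 0.0350). Leaving out replicate C of hippocampus Sox2-GFP did so for the second (3.05, adjusted p = 0.0395) and brought the first to 2.15 (4.44-fold, adjusted p = 0.152). In a slide block the hippocampus Sox2-GFP group enters through its replicate C alone, since slide 2 held no other group. Within slide 3 the differences were 3.31 (adjusted p = 0.277) and 2.83 (adjusted p = 0.439), and within slide 1 the second was 2.39 (adjusted p = 0.185).

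**Figure D3:**
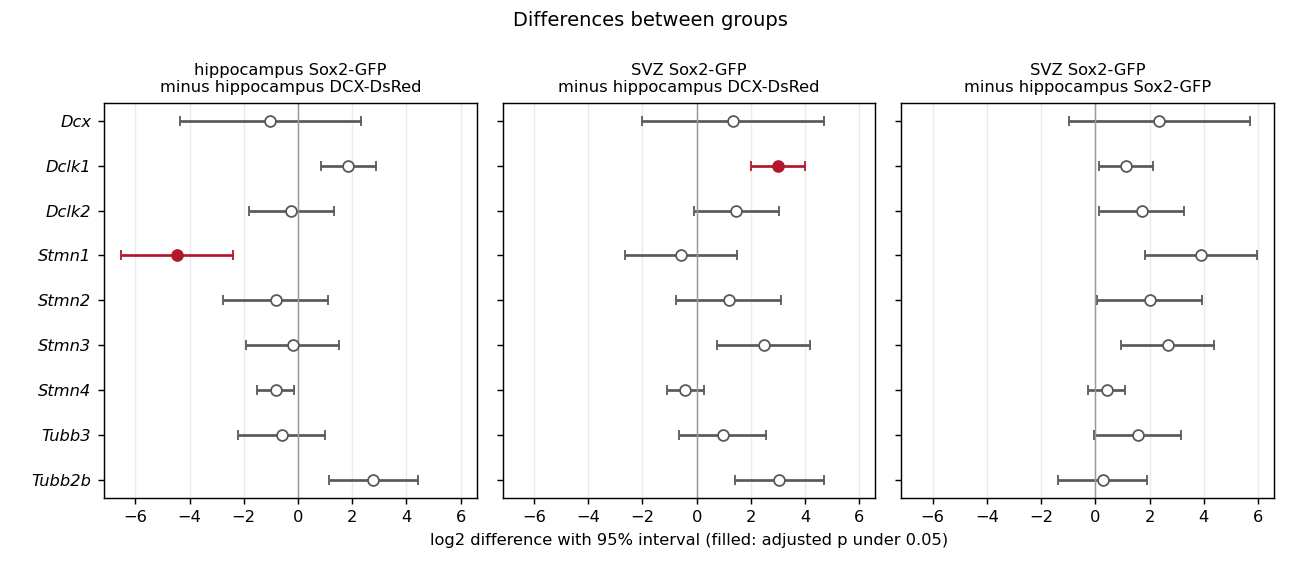
Points are the log2 differences between group means for each gene and horizontal bars their 95% intervals, in 1 panel per comparison, and filled points are those with an adjusted p under 0.05. Stmn1 (-4.46, left) and Dclk1 (3.0, middle) are filled, and in the right panel all 9 points lie above 0 with none filled.

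Between the hippocampal groups the near-identical copy of Tubb2b, Tubb2a, went the other way on its own probe, though it was not called. Tubb2a measured 5.08, 5.0 and 5.22 on DCX-DsRed, 3.80, 4.03 and 3.02 on hippocampus Sox2-GFP and 4.98, 5.41 and 4.38 on SVZ Sox2-GFP. The DCX-DsRed arrays were thus above all hippocampus Sox2-GFP arrays for Tubb2a and below them for Tubb2b. SVZ Sox2-GFP and DCX-DsRed overlapped for Tubb2a. The files used here hold no probe sequences, so whether either probe also binds the copy's mRNA was not tested.

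The members did not move as 1 group. Over the 9 arrays Stmn2 and Tubb3 followed each other most closely (r = 0.971), and Dcx followed Stmn2 (r = 0.874) and Tubb3 (r = 0.792). Stmn3 followed Stmn2 (r = 0.815) and Tubb3 (r = 0.816), and Stmn1 followed Stmn4 (r = 0.851). Dclk1 and Tubb2b formed another pair (r = 0.820, and 0.966 without hippocampus Sox2-GFP replicate C), and Tubb2b ran against Stmn4 (r = -0.719). These coefficients describe 9 arrays that share the group differences, the slides and the scaling. The highest array was an SVZ array for 7 of the 9 members, beside 34.9% of all genes, and a DCX-DsRed array for Stmn1 and Stmn4. The lowest was a hippocampus Sox2-GFP array for 6 members, beside 39.5% of all genes. Within the SVZ group, replicate C was the lowest of the 3 arrays for 5 members (Dcx, Stmn1, Stmn2, Stmn3 and Tubb3), beside 37.2% of all genes, and the highest for Dclk1 and Dclk2.

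Of all other named genes, those with the profile most like each member over the 9 arrays were found by Pearson correlation. For Dcx these were Gad1, which makes the transmitter GABA (r = 0.989), Ptrhd1 (0.974) and Nrxn3, a neurexin of synapses (0.970). Gad1 measured 0.84 and 1.37 on SVZ replicates A and B, -5.62 on SVZ replicate C, and -1.14 on DCX-DsRed replicate C, and was lower on the other hippocampal arrays, from -3.55 to -6.54. The same 3 arrays were thus highest for both genes. The nearest genes to Dclk1 were F3, the coagulation tissue factor (0.998), Nat8f1 (0.978) and Plcd4 (0.970), and those nearest to Dclk2 were Hilpda (0.960), Nap1l1 (0.952) and Ercc8 (0.949). For Stmn1 they were Tubb2a (0.984), Ogfod2 (0.979) and Rpf2 (0.973).

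Stmn2 was near to Scrt2, a zinc-finger repressor of the neural lineage (0.970), and to Tmem131l (0.962). Stmn3 was nearest to Incenp (0.972) and Tpx2 (0.969), which act in mitosis, and to the neural RNA-binding gene Celf3 (0.962). For Stmn4 the nearest were Tnfsf9 (0.981), Hcn4 (0.979) and Rhno1 (0.972), and for Tubb3 Cluh (0.991), Tmem131l (0.990) and Tnnt3 (0.975). For Tubb2b they were Bcar3 (0.951), Msi2, an RNA-binding gene of neural progenitors (0.944), and Idh2 (0.939). Without hippocampus Sox2-GFP replicate C each of these coefficients was 0.914 or higher.

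Lists of other genes of the pathway were counted in the same test. Of 23 measured genes for other doublecortin domains and for the movement of the nucleus (Pafah1b1, Cdk5, Reln and their partners), limma called 0 in each comparison (3 to 4 at an unadjusted p under 0.05), and the median difference between the hippocampal groups was -0.39 beside -0.08 over all genes. Of 15 other tubulins measured, 3 were called between the reporters in the hippocampus. Tubb4b was higher in Sox2-GFP than in DCX-DsRed (2.49 ± 0.27 against 0.64 ± 0.55, SD, n = 3, 3.60-fold, adjusted p = 0.0400). Tubb4a was lower (2.35 ± 0.34 against 4.86 ± 0.14, 5.72-fold, adjusted p = 0.0155), and so was Tubd1, the delta-tubulin of centrioles (-3.63 ± 1.23 against -0.38 ± 0.33, 9.51-fold, adjusted p = 0.0380). No tubulin of the list was called in the other comparisons.

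Of 35 microtubule-associated proteins, 3 were called between the hippocampal groups, all lower in Sox2-GFP. They were Mapt, which encodes tau (3.63-fold, adjusted p = 0.0182), Nav1 (4.23-fold, adjusted p = 0.0283) and Map7 (9.25-fold, adjusted p = 0.0408). Mapt measured 2.70 ± 0.08 in hippocampus Sox2-GFP and 4.56 ± 0.15 in DCX-DsRed, with no overlap. Map7 was also lower in SVZ Sox2-GFP than in DCX-DsRed (-0.30 ± 1.16 against 3.73 ± 0.24, 16.3-fold, adjusted p = 0.0292), the only one of the 35 called there.

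Of 12 measured genes for severing or depolymerising microtubules, Fign was lower in both Sox2-GFP groups than in DCX-DsRed (12.1-fold in the hippocampus, adjusted p = 0.0274, and 12.5-fold in the SVZ, adjusted p = 0.0383). Katnal2 was higher in the Sox2-GFP cells of the hippocampus than in DCX-DsRed (7.20-fold, adjusted p = 0.0375). Of 26 genes for modifying or folding tubulin, the glutamylating ligase Ttll7 was lower in both Sox2-GFP groups (10.9-fold in the hippocampus, adjusted p = 0.0446, and 17.5-fold in the SVZ, adjusted p = 0.0378), and Ttll5 was lower in SVZ Sox2-GFP than in DCX-DsRed (3.73-fold, adjusted p = 0.0282). No gene of the 5 lists was called between the regions. These 10 genes gave 13 calls, each of which kept its sign in every alternative run and was kept as a call in 30% to 70% of its alternatives.

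Marker genes of other cells moved with the same groups. The mean level of 15 oligodendrocyte genes was 4.09 to 4.41 on DCX-DsRed arrays, -2.46 to 0.55 on hippocampus Sox2-GFP arrays and 0.03 to 1.59 on SVZ arrays. Between the hippocampal groups 10 of the 15 were called, all lower in Sox2-GFP, the direction of Stmn1, Mapt and Tubb4a. In means, 7 of the 9 members were lower there, Stmn4 without overlap (-0.83, not called), and 2 were higher. Between SVZ Sox2-GFP and DCX-DsRed 4 of the 15 were called, all lower in the SVZ cells. Stmn1 differed there by -0.57 (limma, adjusted p = 0.859) and Stmn4, without overlap, by -0.42 (limma, adjusted p = 0.62). The other 7 members had a higher mean in the SVZ cells, and Mapt and Tubb4a were not called. The mean of 15 astrocyte genes was 0.98 to 1.32 on DCX-DsRed arrays, 2.74 to 3.87 on SVZ arrays, and 2.88, 2.98 and -0.30 on hippocampus Sox2-GFP. Clu was the only one of the 15 called, higher in both Sox2-GFP groups, the direction of Dclk1 and Tubb2b. Hippocampus Sox2-GFP replicate C had the lowest astrocyte mean of all arrays (-0.30). Within its group this array had the lowest Dclk1 (1.13) and the highest Tubb2b (0.83). The mean of 11 choroid plexus genes was 1.36 to 3.45 on hippocampus Sox2-GFP arrays and -2.93 to -2.23 on all others. Between the hippocampal groups 8 were called, all higher in Sox2-GFP. Between the regions 5 of the 11 were called, all lower in the SVZ, and all 11 had an unadjusted p under 0.05. Against DCX-DsRed, 1 was called lower in SVZ Sox2-GFP. The mean of 12 ependymal genes was 0.09 to 1.50 on hippocampus Sox2-GFP, -3.25 to -2.51 on DCX-DsRed and -1.63 to -0.36 on SVZ arrays. Between the hippocampal groups 7 were called, all higher in Sox2-GFP, the direction of Tubb4b and Katnal2. Between SVZ Sox2-GFP and DCX-DsRed 1 was called, higher in the SVZ cells. The mean of 11 genes of oligodendrocyte precursors was 1.61 to 1.79 on DCX-DsRed arrays, -1.44 to 0.68 on hippocampus Sox2-GFP arrays and 0.25 to 0.59 on SVZ arrays, with 1 called, higher in SVZ Sox2-GFP than in DCX-DsRed. That of 14 endothelial and mural genes was -1.83 to -0.30 on hippocampus Sox2-GFP, -2.60 to -1.89 on DCX-DsRed and -1.87 to -0.38 on SVZ arrays, with 2 called between the hippocampal groups and 1 between SVZ and DCX-DsRed, all lower in DCX-DsRed. The mean of 13 genes of cycling cells was -3.01 to -1.85 on hippocampus Sox2-GFP, below its range of -1.79 to -1.36 on DCX-DsRed, the direction of Stmn1, and -1.82 to -1.12 on SVZ arrays. That of 12 microglial genes was -1.52 to -1.23 on SVZ arrays and -1.03 to -0.63 on the others. Limma called 0 genes of the cycling list (2 to 3 at an unadjusted p under 0.05 in each comparison) and 0 of the microglial list (1 to 2). The part of these cells in the results on the members was not tested.

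Marker genes of neurons other than the members gave no call. The mean of 17 other genes of immature neurons was -1.87, -1.09 and -0.28 on the DCX-DsRed arrays, -1.29, -1.24 and -2.84 on hippocampus Sox2-GFP, and -0.12, -0.02 and -1.70 on SVZ Sox2-GFP. SVZ replicates A and B were thus high and SVZ replicate C low for this list as for Dcx, Stmn2 and Tubb3. Limma called 0 of the 17 in each of the 3 comparisons, with 4 to 6 at an unadjusted p under 0.05. Of the 23 genes on this list 17 were measured, and Neurod1 and Neurod6 were among those left out. Each had 1 probe, with 0 arrays flagged as well above background. Dlx2 and Sp8, also with 1 probe each, had 2 such arrays, and Dlx1 and Sp9 had no probe. Whether these single probes detect their mRNAs was not tested, so the values do not show that the mRNAs were absent. The mean of 19 mature neuron genes, Gad1 among them, was -0.97 and -0.87 on SVZ replicates A and B and -2.0 on replicate C, and lay between -2.80 and -1.42 on the hippocampal arrays.

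**Figure D4:**
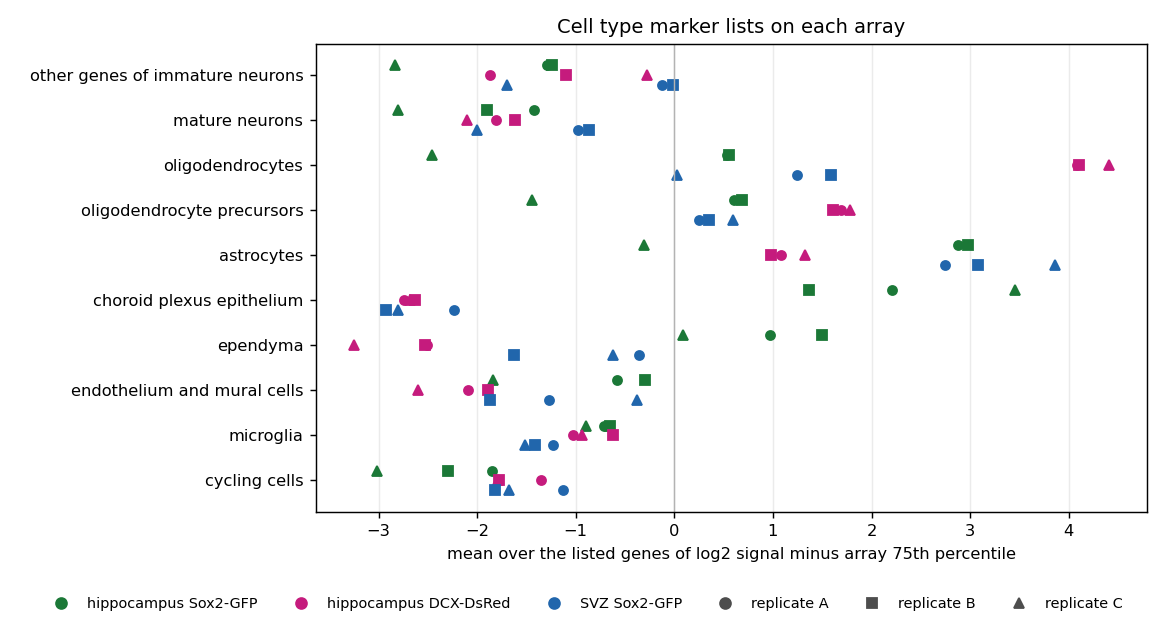
Each row is a list of marker genes of 1 cell type and each point the mean level of its measured genes on 1 array, in log2 signal minus the array's 75th percentile. Colours give the group and shapes the replicate. The oligodendrocyte list is highest on the 3 DCX-DsRed arrays (4.09 to 4.41), the choroid plexus list on the 3 hippocampus Sox2-GFP arrays (1.36 to 3.45), and the immature neuron list on SVZ replicates A and B.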

How the data were processed

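Gene expression was measured on 9 Agilent 1-colour arrays, 3 per group, with groups and replicate letters taken from the sample titles. Each deposited file holds 1 array's spot intensity and 0 or 1 flag columns (other values). Per the file headers, the intensity was extracted with Feature Extraction 9.5.1.1, and the processed signal has a fitted background surface subtracted, spatial trends removed and surrogates for values under the noise. It was not normalized between arrays. Limma is named, without a version, in the submitters' processing notes. A spreadsheet had rewritten one file, rounding its signals and altering 47 gene names, so names come from an intact file.

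From the deposited intensity, control spots (43379 others remained) and outlier flags were left out, spots of a probe were averaged, 464 probes with no unflagged spot on some array were dropped, and log2 values were centred on the array's 75th percentile. A probe was kept if 3 or more of the 9 arrays had it well above background, and each gene took its probe of highest mean. Symbols were updated through RefSeq (GRCm38.p6). The build of the probe coordinates is not given in the sources used here. The fit covered all 9 arrays and used R 4.3.3 with limma 3.58.1 (lmFit, eBayes, 6 residual degrees of freedom) and differences were called at a Benjamini-Hochberg adjusted p under 0.05 over 24891 genes. The script was tested on simulated data. The number of arrays limits the precision.

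All 9 members are named in every comparison. Of the pathway lists, called genes were named, at most 4 per list. Of the marker lists, counts and means are given. For each member, the 3 most correlated genes with a regular symbol are named, except 1 that is not reported here. Clu, Neurod1, Neurod6 and the array values of Sox2, Tubb2a and Gad1 were added after their values were seen. The members and lists were chosen with earlier results of these data known. The replicate letters were checked for pairing: deviations from group means of same-letter arrays correlated at -0.04 to 0.12, with 1 of 9 pairs over 0.1, so the letters were not taken to pair the samples.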

Additional observations from a re-analysis of the deposited data

How the results depend on the processing

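Of 573 values of members under the alternatives, 532 kept their sign and side of the threshold, 22 lost a call, 7 gained one and 12 changed sign. Calls of single members that were lost or gained are given with each gene, except those under the replicate block and between the regions, which follow here. The counts of genes and members called moved most. For hippocampus Sox2-GFP against DCX-DsRed (790 genes, 1 member), slide as a block called 2024 genes and 2 members, slide 3 alone 0 and 0, normexp background 2 members, and a fit of only the 2 groups 0 members. Leaving out 1 array gave 251 to 773 genes and 0 to 1 members, with the largest losses of genes without DCX-DsRed replicate A (251), B (287) or C (375) or Sox2-GFP replicate A (330) or B (431). For SVZ Sox2-GFP against DCX-DsRed (385 genes, 1 member), slide as a block called 794 genes and 2 members, slides 1 and 3 alone 0 and 0 each, and the mean of a gene's probes 0 members. Leaving out 1 array gave 49 to 847 genes (847 without hippocampus Sox2-GFP replicate C, and 49, 86 and 161 without DCX-DsRed replicates A, B and C, 212 and 249 without hippocampus Sox2-GFP A and B, and 250, 206 and 128 without SVZ A, B and C) and 0 to 2 members. For the regions within Sox2-GFP (99 genes, 0 members), the counts of genes were 163 with normexp, 50 with probes well above background on all 9 arrays, 173 with the mean of a gene's probes, 154 with every probe on its own, 8 with only the 2 groups, 0 within slide 3, and 2128 with slide as a block, where 3 members were called (Dclk1 1.93, adjusted p = 0.0314, Dclk2 3.27, 0.0405, and Stmn1 5.98, 0.0143). Leaving out 1 array gave 25 to 97 genes (25 without hippocampus Sox2-GFP A, 51 and 62 without DCX-DsRed A and B, 62 and 59 without SVZ A and B) and 0 members. Slide 1 holds no hippocampus Sox2-GFP array, so it gives no value for the other comparisons. Slide 2 holds hippocampus Sox2-GFP replicates A and B alone. With slide as a block, both comparisons with hippocampus Sox2-GFP therefore rest on its replicate C, the array that stood apart. Their counts and calls under that block carry this limit.

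With the replicate block, the 3 comparisons called 489, 191 and 13 genes and 0, 0 and 0 members (Stmn1 between the hippocampal groups, adjusted p = 0.0529, and Dclk1 between SVZ and DCX-DsRed, 0.0607). Arrays correlated best with their own letter in 4 of 18 cases. The labels do not say whether a letter was shared between groups, so these correlations cannot settle whether the letters pair the samples.

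A member's difference changed sign in 12 cases, given here with 3 values that kept it (-0.80 for Stmn3, -0.95 for Dclk2 and 0.90 for Tubb2b) as the other end of the range over the arrays left out. Between the hippocampal groups, Stmn3 was 0.047 within slide 3, 0.28 without Sox2-GFP replicate C, -0.80 without DCX-DsRed replicate C and 0.41 without DCX-DsRed replicate A, Dclk2 was -0.95 without Sox2-GFP replicate A, 0.37 without Sox2-GFP replicate C and 0.093 without DCX-DsRed replicate C, and Dcx was 0.88 on probe A_51_P289097. Between SVZ and DCX-DsRed, Dcx was -0.94 within slide 3. Between the regions, Tubb2b was -0.55 with slide as a block, -0.48 within slide 3, -0.19 without hippocampus Sox2-GFP replicate A, 0.90 without its replicate C and -0.24 without SVZ replicate B, and Dclk1 was -3.73 on probe A_52_P217807. The causes were not tested.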
